A study of Mus musculus with 3 samples.

Results

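The 8 genes described here, Gdf5, Gdf6, Wnt9a, Wnt4, Erg, Prg4, Creb5 and Barx1, are known from the joint interzone and from articular tissue and were taken by name. The locus of each gene was its body with 20 kb either side in mm10, and every accessible region called in that window belonged to it, which gave 252 of the 266531 regions of the series. Of these 252 regions, 114 held a called peak in each of the 3 libraries, against 82930 such shared autosomal regions in all. The 8 loci were 8 of the 17555 autosomal protein-coding loci with at least 1 shared region.

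The study profiled mesenchymal progenitors (MPs) of the mouse forelimb by droplet-based single-nucleus ATAC-seq, in which a transposase cuts open chromatin in each nucleus. There was 1 library for each stage, and they held 8294 (E12.5), 20023 (E14.5) and 14048 (E16.5) nuclei. All embryos were Hic1CreERT2/CreERT2;Rosa26LSLtdTomato/tdTomato on C57BL/6J, so both the inducible recombinase, driven from the Hic1 gene, and the red reporter were present in every library and no library lacked either. Dams older than 7 weeks were gavaged at embryonic day 10 with 7.5 mg of tamoxifen in 300 uL of sunflower oil, and reporter-positive cells were sorted after removal of blood and endothelial cells by surface markers. Whole forelimbs were used at E12.5 and E14.5, whereas at E16.5 the tissue was the elbow segment, that is the distal stylopod, the proximal zeugopod and the joint between them. Limbs were pooled within a library, sexes were not separated, and digestion was with Dispase at E12.5 and with Collagenase A, Pronase and DNase later. With 1 library per stage, the stage and the library cannot be told apart at any step. Between E12.5 and the later stages the digestion changed as well, and between E16.5 and the earlier stages the dissected segment did. No test between stages was possible, and the 95% intervals below cover counting error only.

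The joint interzone is a layer of flattened cells that forms across a continuous cartilage condensation where a synovial joint will arise, and its descendants contribute to articular cartilage, ligaments and synovium. Gdf5 and Gdf6 encode secreted BMP-family ligands of this layer, and Wnt9a and Wnt4 encode Wnt ligands expressed at forming joints. Erg, Creb5 and Barx1 encode transcription factors of the ETS, CREB/ATF and homeobox families, while Prg4 encodes lubricin, the boundary lubricant made by superficial articular chondrocytes and synovial cells.

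The matrices held 87048167, 204289151 and 413425059 cut sites in stage order (the earliest first). Cut sites were converted to fragments at 2 per fragment, and levels are given as fragments per 1000000 (FPM) in autosomal shared regions, which numbered 37505980, 102335455 and 168817644. The median nucleus held 2541.5, 4294 and 10841.5 such fragments, so the E16.5 nuclei were the deepest. Between 151 and 401 barcodes occurred in any 2 libraries. The loci of the mesenchymal markers Prrx1, Twist1, Pdgfra and Hic1 were open in all libraries, with a summed 683, 707 and 663 FPM. Loci of myogenic, endothelial, epithelial, blood and Schwann markers with a shared region, which Krt5 lacked, were also above 0 in every library, the lowest being Krt14 at 2.55 FPM at E16.5. A locus was counted as higher or lower where its log2 ratio between 2 libraries was at least 0.5 either way. The median log2 ratio over all loci was 0.10 from E12.5 to E14.5, -0.12 from E14.5 to E16.5 and -0.01 from E12.5 to E16.5.

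From E12.5 to E16.5, the Prg4 and Wnt4 loci were higher and the other 6 loci stayed within the limits of 0.5. Thus 2 of 8 loci were higher and 0 of 8 lower, where 6.61% of all loci were higher and 8.54% lower. The count was again 2 higher and 0 lower from E14.5 to E16.5 (background 5.66% and 4.6%), although per kb of called width both Wnt4 (-0.90) and Prg4 (-0.09) turned negative at this step and Wnt4 was at -0.06 in peaks of matched position. By contrast, 0 of 8 moved in either direction from E12.5 to E14.5 (5.01% and 6.61%), where 7 of 8 were higher per kb of called width, as were 48.6% of all loci. A higher sum over a locus does not separate more nuclei in which it was open from more fragments in each of them.

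**Figure D1:**
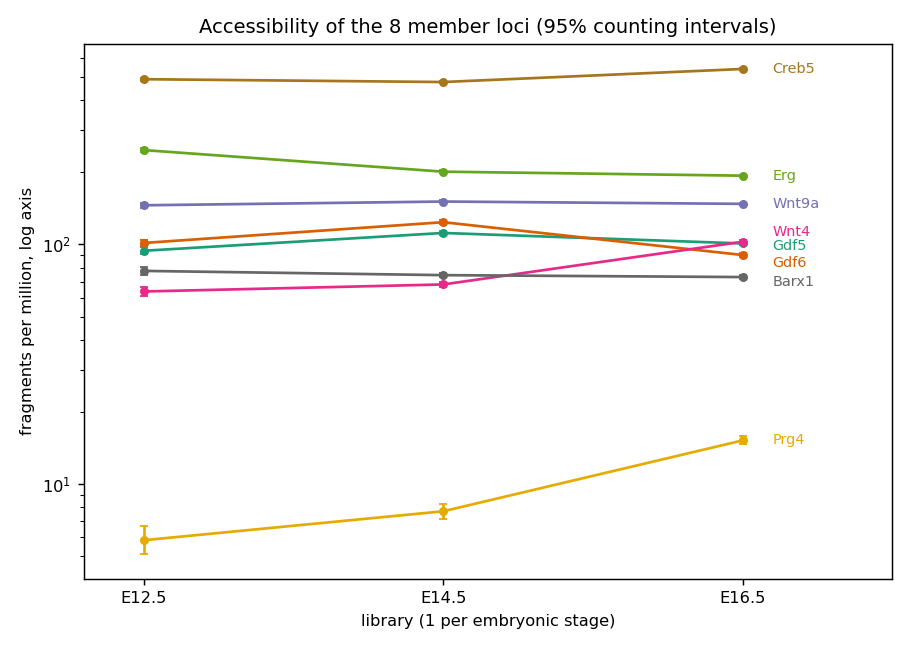
Summed accessibility of each of the 8 loci, in FPM on a log axis, in the 3 libraries (1 per stage, bars are 95% counting intervals). Prg4 lies lowest and rises from 5.84 to 15.2, and Wnt4 rises from 63.6 to 103. Erg falls from 248 to 194, Gdf6 goes from 101 to 124 and then 90.3, and the lines of the other loci are nearly flat.

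Among the ligands, Gdf5 (chr2:155941023-155945367, minus strand) gave 94.1, 112 and 101 FPM in stage order. Its log2 ratio from E12.5 to E16.5 was 0.10 (0.05 to 0.15), which placed it at percentile 64.6 of all loci. Gdf6 (chr4:9844372-9862345, plus strand) gave 101, 124 and 90.3 FPM. Both BMP-family sums were thus highest at E14.5, but without the promoters of other genes in its window Gdf5 gave 45.2, 49.8 and 48.8 FPM. From E14.5 to E16.5 the log2 ratio of Gdf5 was -0.15, near the median of -0.12 over all loci. The fall of Gdf6 at this step, a log2 ratio of -0.45 (-0.49 to -0.42), ranked at percentile 6.31 without reaching the limit. Wnt9a (chr11:59306928-59333552, plus strand) gave 146, 151 and 148 FPM, with a log2 ratio of 0.02 from E12.5 to E16.5. Wnt4 (chr4:137277489-137299726, plus strand) gave 63.6, 68.1 and 103 FPM. Of the 2 Wnt loci, therefore, only Wnt4 passed the limit, by a log2 ratio of 0.69 (0.63 to 0.75, percentile 96.5), and most of this lay between E14.5 and E16.5 (0.59). The Wnt4 value depended on how peaks were drawn: it was 0.05 per kb of called width and 0.21 where only the peaks of matched position, which overlapped by at least 50% between each pair of libraries, were counted.

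Among the transcription factors, Erg (chr16:95359169-95586593, minus strand) gave 248, 201 and 194 FPM, and its log2 ratio from E12.5 to E16.5 was -0.35 (-0.39 to -0.32, percentile 14). Creb5 (chr6:53287270-53700376, plus strand), the longest of the 8 genes, gave 489, 476 and 539 FPM with a log2 ratio of 0.14. Barx1 (chr13:48662998-48666507, plus strand) gave 77.6, 74.5 and 73.1 FPM with a log2 ratio of -0.09. None of the 3 factor loci passed the limit, and in matched-position peaks alone Erg reached -0.62. Prg4 (chr1:150449412-150466165, minus strand) gave 5.84, 7.71 and 15.2 FPM from 219, 789 and 2571 fragments. Its log2 ratio was 0.40 from E12.5 to E14.5, 0.98 from E14.5 to E16.5 and 1.38 over the whole interval (1.18 to 1.59, percentile 99.3), the largest of the 8. Only 2 of the 8 Prg4 regions were shared, neither at a matched position, and per kb of called width the ratio from E12.5 to E16.5 was 0.70.

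Per kb of window, the order of the levels at E16.5 was Gdf5 at 2.28 FPM per kb, Wnt9a at 2.22, Barx1 at 1.68, Wnt4 at 1.65, Gdf6 at 1.56, Creb5 at 1.19, Erg at 0.72 and Prg4 at 0.27. The counting intervals overlapped between Gdf5 and Wnt9a and between Barx1 and Wnt4, and there was no replicate spread against which to set the other steps. At E12.5, Wnt4 stood at 1.02 FPM per kb and Prg4 at 0.10. The Gdf5 window held 2 regions at promoters of its neighbours, that of Uqcc1 at 15.5 kb (23.0, 28.1 and 24.5 FPM) and that of Cep250 at -11.4 kb (25.9, 33.7 and 27.6 FPM), and without these its level at E16.5 was 48.8 FPM, or 1.1 per kb, below Creb5. Wnt9a, at 2.0 FPM per kb without the promoter of another gene in its window, was then first.

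Opening was next followed in single regions, because a locus sum can hide regions that move in opposite directions. Positions are given in kb from the annotated gene start along the gene, negative upstream. Of the 114 shared regions, 63 were intronic, 32 lay in the flanks, 9 were promoters of the 8 genes, 6 overlapped coding exons, 3 were promoters of other genes and 1 overlapped a UTR exon. From E12.5 to E16.5, 31 of 114 (27.2%) were higher and 31 (27.2%) lower, against 28.2% and 27.7% of all shared autosomal regions. From E12.5 to E14.5, 26 were higher and 30 lower (background 20.5% and 32.7%), and from E14.5 to E16.5, 33 were higher and 19 lower (31.2% and 17.1%). Over all 114, the member regions moved about as often as any others. Counts differed between loci, but most loci held few regions. In Erg, 3 of 21 regions were higher and 11 lower from E12.5 to E16.5, while in Creb5 19 of 53 were higher and 13 lower. In Wnt4, 3 of 6 were higher and 0 lower, and in Prg4 both were higher. Gdf5 had 3 higher and 2 lower of 8, Gdf6 0 and 2 of 6, Wnt9a 1 and 2 of 13, and Barx1 0 and 1 of 5. Among the 59 member regions with peaks of matched position, 12 were higher and 20 lower (17.9% and 25.2% of all such regions), with 1 and 8 of 14 in Erg and 8 and 7 of 24 in Creb5. In this smaller set the share of lower regions was thus above that of all such regions.

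**Figure D2:**
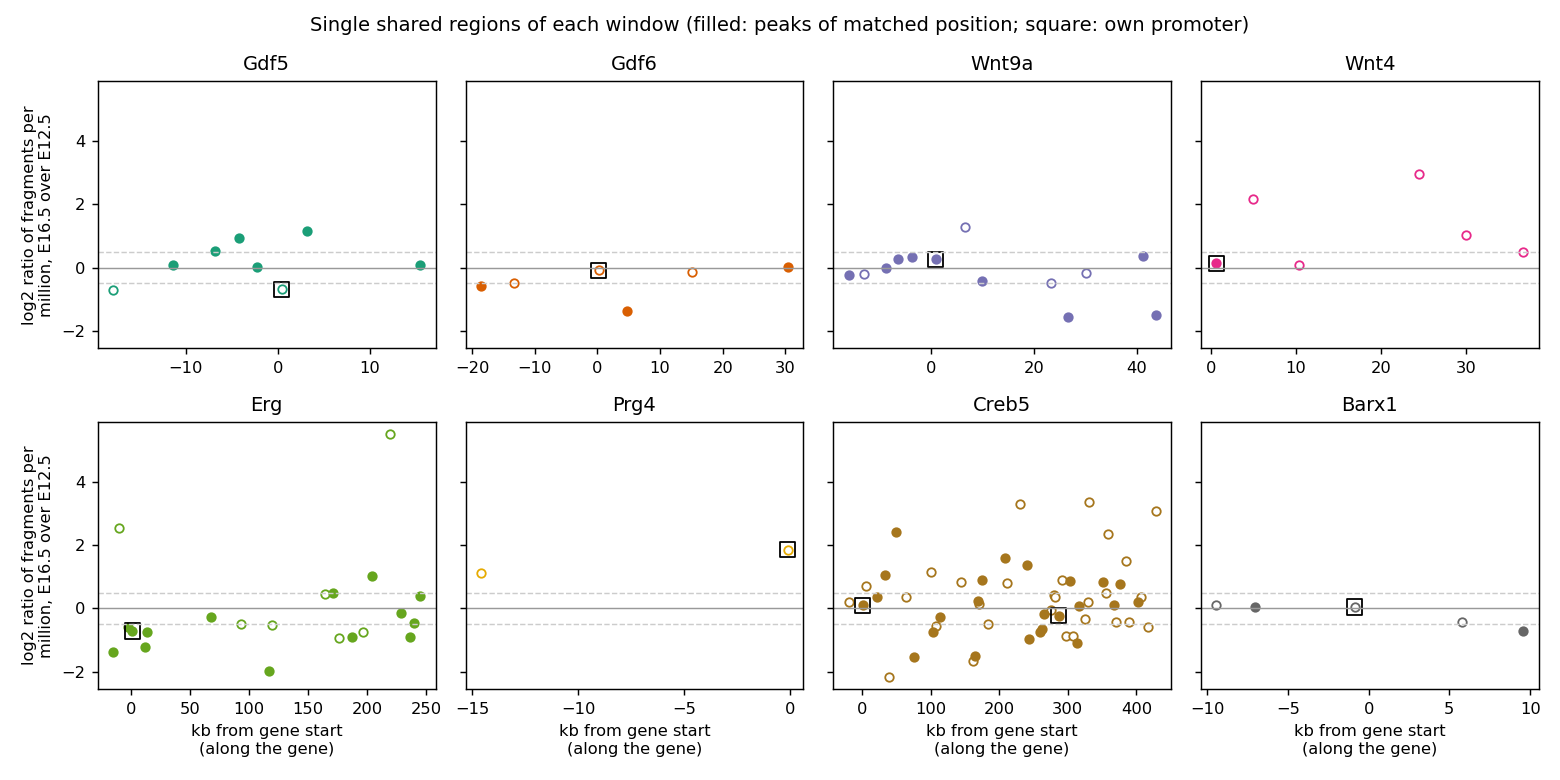
Log2 ratio of FPM between E16.5 and E12.5 (vertical axis) for each shared region of the 8 loci against its distance in kb from the gene start along the gene (horizontal axis). Filled points are regions with peaks of matched position, squares mark the gene's own promoters and dashed lines mark 0.5 either way. In Erg 11 of 21 points lie below the lower line, in Creb5 19 of 53 lie above the upper line and 13 below the lower, and both Prg4 points lie above.

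The promoters of Prg4 and Erg moved in opposite directions. The Prg4 promoter region (chr1:150465791-150466743) gave 1.76, 3.14 and 6.39 FPM in stage order, a log2 ratio of 1.86 (1.5 to 2.24) from first to last and of 1.0 per kb of called width. The other shared Prg4 region, in the upstream flank at -14.6 kb, gave 4.08, 4.57 and 8.84 FPM, a log2 ratio of 1.12 (0.87 to 1.36). The Erg promoter region (chr16:95584588-95587303) gave 36.8, 32.5 and 22.5 FPM, a log2 ratio of -0.71 (-0.80 to -0.62) at matched positions. The Gdf5 promoter was also lower at E16.5, with 25.1, 26.3 and 15.6 FPM and a log2 ratio of -0.68 (-0.79 to -0.57), which was -0.19 per kb of called width. The remaining promoters lay within the limits, at 0.27 for Wnt9a, 0.14 for Wnt4, 0.10 and -0.23 for the first and the internal promoter of Creb5, 0.05 for Barx1 and -0.09 for Gdf6.

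Away from promoters, opening rose at single regions of Gdf5, Wnt4 and Creb5 whose levels increased at each stage. The Gdf5 upstream flank at -4.27 kb (chr2:155948996-155950275) gave 8.99, 11.5 and 17.0 FPM, a log2 ratio of 0.92 (0.76 to 1.09) at matched positions, and a coding-exon region at 3.20 kb gave 4.43, 7.04 and 9.94 FPM (1.17, and 0.28 per kb). In Wnt4, the region in the downstream flank at 24.4 kb (chr4:137301246-137302596) gave 0.72, 4.68 and 5.55 FPM, a log2 ratio of 2.95 (2.40 to 3.56), and the intronic region at 4.96 kb gave 4.27, 8.64 and 19.1 FPM (2.16). Their peaks were wider at E16.5, and the ratios were 0.80 and 0.70 per kb of called width. In Creb5, the intronic region at 50.2 kb (chr6:53336691-53338270) gave 4.08, 8.67 and 21.8 FPM, a log2 ratio of 2.42 (2.18 to 2.66), the highest of the 24 matched-position regions of this gene. The largest rise in Creb5 was at 331 kb, in an intron, with 1.57, 3.01 and 16.4 FPM (3.38, and 1.89 per kb).

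Other regions of Erg and Creb5 were lower at E16.5 than at E12.5, though still called. The Erg intronic region at 117 kb gave 16.9, 8.46 and 4.26 FPM, a log2 ratio of -1.99 (-2.14 to -1.83), and the upstream flank at -15.4 kb (chr16:95600784-95603169) gave 34.5, 17.3 and 13.2 FPM, a log2 ratio of -1.39 (-1.49 to -1.29). Both had peaks of matched position and both fell at each stage. The largest rise in Erg, an intronic region at 219 kb, gave 0.19, 2.05 and 8.53 FPM, but its E12.5 peak covered only 60 bp and its log2 ratio of 5.51 was 0.82 per kb. In Creb5, the intronic regions at 76.5 kb and 39.0 kb fell by log2 ratios of -1.54 (16.8, 13.4 and 5.77 FPM, matched) and -2.17 (4.80, 2.08 and 1.07 FPM, -0.18 per kb). The largest falls elsewhere were -1.55 in a UTR exon of Wnt9a at 26.5 kb (5.55, 3.30 and 1.90 FPM), -1.38 in an intron of Gdf6 at 4.72 kb (2.56, 3.63 and 0.98 FPM), and -0.72 both in the downstream flank of Barx1 at 9.57 kb (8.35, 6.70 and 5.05 FPM) and in the Gdf5 upstream flank at -17.9 kb (3.31, 0.34 and 2.01 FPM, with 63 bp called at E14.5). The region of lowest ratio in Wnt4, at 10.4 kb, was at 0.07, and those of highest ratio were 0.03 in Gdf6 at 30.4 kb, 0.12 in Barx1 at -9.44 kb and 1.29 in Wnt9a at 6.58 kb, the last being -0.59 per kb.

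The sequences of the regions that carry these changes are given from the GRCm38.p6 genome, 5' to 3', as the 250 bases before the Prg4 start on its own strand and the central 300 bases of the other regions. The following 5 motifs were searched on both strands: CRE (TGACGTCA), the site of CREB/ATF factors such as CREB5, AP-1 (TGANTCA), ETS (CCGGAA), the site of factors such as ERG, HMG (ACAAAG), in which the SOX and TCF cores overlap, and a GC-rich SMAD motif (GGCGCC), downstream of BMP-family ligands. Capitals mark matches, which are a description of letters and not of binding.
Prg4 upstream (chr1:150466166-150466415, minus strand): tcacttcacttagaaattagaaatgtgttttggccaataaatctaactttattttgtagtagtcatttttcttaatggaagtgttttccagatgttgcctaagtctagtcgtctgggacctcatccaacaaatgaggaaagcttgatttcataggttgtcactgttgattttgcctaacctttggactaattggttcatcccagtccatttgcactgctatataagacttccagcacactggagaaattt
Gdf5 flank at -4.27 kb (chr2:155949486-155949785, plus strand): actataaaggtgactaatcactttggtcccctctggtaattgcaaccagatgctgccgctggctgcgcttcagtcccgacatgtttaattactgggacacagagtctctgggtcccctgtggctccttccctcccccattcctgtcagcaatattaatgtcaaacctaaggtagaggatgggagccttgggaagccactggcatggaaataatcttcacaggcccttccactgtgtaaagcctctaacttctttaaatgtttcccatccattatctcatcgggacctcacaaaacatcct
Wnt4 flank at 24.4 kb (chr4:137301772-137302071, plus strand): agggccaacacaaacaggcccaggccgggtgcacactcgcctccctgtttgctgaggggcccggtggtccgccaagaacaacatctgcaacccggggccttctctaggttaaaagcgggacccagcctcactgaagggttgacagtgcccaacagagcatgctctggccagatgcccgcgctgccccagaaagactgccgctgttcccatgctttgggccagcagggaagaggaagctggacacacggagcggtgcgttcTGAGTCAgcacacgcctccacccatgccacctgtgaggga
Creb5 intron at 50.2 kb (chr6:53337331-53337630, plus strand): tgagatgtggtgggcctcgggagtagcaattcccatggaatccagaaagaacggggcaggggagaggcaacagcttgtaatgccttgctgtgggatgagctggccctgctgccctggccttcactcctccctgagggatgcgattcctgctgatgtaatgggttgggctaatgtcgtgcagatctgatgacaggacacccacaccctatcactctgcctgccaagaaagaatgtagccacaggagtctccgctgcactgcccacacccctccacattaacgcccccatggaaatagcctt
Erg flank at -15.4 kb (chr16:95601827-95602126, plus strand): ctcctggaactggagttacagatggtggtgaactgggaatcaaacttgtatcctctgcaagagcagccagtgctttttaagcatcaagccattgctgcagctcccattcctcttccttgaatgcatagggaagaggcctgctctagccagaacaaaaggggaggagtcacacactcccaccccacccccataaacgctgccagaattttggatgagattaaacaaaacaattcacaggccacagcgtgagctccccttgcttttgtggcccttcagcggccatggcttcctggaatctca

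Only the Wnt4 window held any of the 5 motifs, an AP-1 match. Over the central 300 bp of the 114 shared regions, CRE was in 0 of 114, which allows a share of up to 3.18% (Clopper-Pearson), against 0.591% of all shared regions. AP-1 was in 15 (13.2%, against 10.8%), HMG in 26 (22.8%, against 21.6%), SMAD in 6 (5.26%, against 6.07%) and ETS in 4 (3.51%, against 6.74%). Each of these shares had a 95% interval that held the background share.

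Loci of the pathways around the 8 genes passed the limit in both directions or not at all. From E12.5 to E16.5, 2 of the 19 other joint and synovial loci were higher and 3 lower, from Cd44, a hyaluronan receptor, at a log2 ratio of 1.22 (75.4, 87.3 and 176 FPM, -0.16 per kb of called width and 1.38 in matched-position peaks) to Matn4 at -0.60 (93.2, 76.4 and 61.6 FPM). Of 12 loci of GDF and BMP signalling, 1 was higher and 3 lower, from the receptor Acvr2a at 0.55 to the target Id1 at -0.92 (251, 146 and 133 FPM). Of 12 canonical Wnt pathway loci, 0 passed the limit, and the range ran from Axin2, a feedback target, at 0.45 to Lef1 at -0.35. The median log2 ratios of these lists were 0.09, -0.16 and 0.02, against -0.01 over all loci, of which 6.61% were higher and 8.54% lower. Per kb of called width, 2 of the 5 joint and synovial loci past the limit stayed past it and 2 turned in direction. Of the 4 GDF and BMP loci past the limit, 2 stayed past it. In matched-position peaks 4 of the 5 and 4 of the 4 did.

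Of the lineage lists, which differ in length, the chondrogenic and the fibrogenic list held the largest counts of loci past the limit, in opposite directions. From E12.5 to E16.5, 6.61% of all loci were higher and 8.54% lower. Of 8 chondrogenic loci, 0 were higher and 3 lower, from Chad at 0.30 to Sox5, a cartilage SOX factor, at -1.08 (348, 213 and 165 FPM). Of 6 fibrogenic loci, 4 were higher and 0 lower, from Clec3b at 1.92 (27.8, 48.8 and 105 FPM) to Mfap5 at -0.42. Per kb of called width only Clec3b, at 1.01, stayed past the limit, since Dpt went from 1.08 to 0.19, Cd34 from 0.95 to 0.03 and Postn from 0.79 to -0.07, and in matched-position peaks Dpt was at -1.91. Over the 94 loci of all lists, 25 passed the limit, of which 12 also did so per kb of called width and 20 in matched-position peaks, with 4 and 1 turned in direction. The counts of higher and lower loci were 1 and 0 of 5 for tenogenic (Kera 0.84, Scx -0.46), 0 and 0 of 6 for dermal fibrogenic (Irx1 0.29, Crabp1 0.08), 1 and 1 of 4 for pericyte (Kcnj8 0.60 and Rgs5 -0.58, or -0.49 and -0.11 per kb) and 0 and 0 of 4 for mesenchymal loci (Prrx1 0.13, Hic1 -0.32). For cell types that the sort should remove or not label, they were 2 and 0 of 4 for endothelial (Tek 0.94, or 0.22 per kb, and Kdr -0.33), 0 and 2 of 4 for myogenic (Pax7 -0.10, Myf5 -2.10), 0 and 1 of 3 for epithelial (Epcam -0.41, Krt14 -1.20), 0 and 1 of 4 for blood (lowest Ptprc -0.79) and 0 and 0 of 3 for Schwann cells (lowest Erbb3 -0.12). The summed level rose from 403 to 556 FPM for fibrogenic and from 142 to 176 FPM for endothelial loci and fell from 1094 to 747 FPM for chondrogenic loci between E12.5 and E16.5. The 3 lower chondrogenic loci were Sox5 (348 to 165 FPM), Sox6 (320 to 192) and Col9a1 (90.9 to 46.1). Sox9 (85.3 to 84.7) and Col2a1 (139 to 140) stayed level, Acan fell (36.0 to 28.7), and Chad (56.1 to 69.1) and Matn1 (18.5 to 21.5) rose. The part of these lists in the member ratios was not tested.

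Co-opening asked whether 2 loci were open in the same nuclei. Since deeper nuclei have more of every locus, each nucleus was thinned to 1074 fragments, the 25th percentile of E12.5, which kept 6223, 20023 and 13796 nuclei and brought the median log2 odds ratio of all pairs of distant loci from 1.69, 0.80 and 1.18 to 0.03, 0.01 and 0.02. At this depth the share of nuclei with a Wnt4 fragment was 5.88% (5.31 to 6.49), 6.73% (6.38 to 7.08) and 10.2% (9.74 to 10.8) in stage order, against 18.7%, 26.1% and 57.5% before thinning. For Prg4 the shares were 0.450%, 0.784% and 1.29% (2.33%, 3.73% and 14.3% before thinning), that is 28, 157 and 178 nuclei. Both shares were thus highest at E16.5 at equal depth, but thinning does not equalise the called width, which for Wnt4 rose from 12154 to 18907 bp between E12.5 and E16.5. Erg fell from 21.0% to 18.7% and 18.1%, Creb5 was at 36.3%, 38.3% and 41.7%, Gdf5 at 9.37%, 10.3% and 10.0%, Gdf6 at 9.63%, 12.3% and 8.92%, Wnt9a at 14.1%, 14.2% and 13.9% and Barx1 at 6.83%, 7.05% and 7.54%.

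Pairs of member loci were then compared with all pairs at equal depth. A pair was called co-open at a log2 odds ratio of at least 0.5, which 9.69%, 3.6% and 5.16% of all distant pairs reached in the 3 libraries in stage order. Of the 28 member pairs, 1 reached it in the E12.5 library and 0 in each of the later ones, with medians of 0.15, 0.00 and -0.02. These counts are near the shares of all pairs, and the E12.5 count was 3 (10.7%, against 9.71%) with another random draw of the fragments. With the gene body and 2 kb upstream alone, 8 of 28 pairs (28.6%) reached it in the E12.5 library, where 19.4% of all distant pairs did. The 1 pair was Gdf6 and Wnt9a, open together in 110 nuclei where 84.3 were expected (0.52, interval 0.20 to 0.83). Pairs with Prg4 rested on few nuclei at this depth, with 8 nuclei open for both Gdf5 and Prg4 at E16.5 where 17.8 were expected (-1.17, interval -2.17 to -0.18). The data were therefore also thinned to each library's own 25th percentile, a choice made after the data were seen, which at E16.5 left 10537 nuclei of 5656 fragments. There, Gdf5 and Prg4 shared 348 nuclei where 348 were expected. No member pair reached 0.5 (background 0.559%), and the 28 values ran from -0.26 (Wnt4 and Prg4, interval -0.47 to -0.05) to 0.12 (Wnt9a and Prg4). At E14.5, thinned to 2410 fragments, the count was likewise 0 of 28 (background 1.36%). By the same measure, in the same E16.5 nuclei, 11 of the 28 pairs of chondrogenic loci reached 0.5, with a median of 0.44, as did 0 of 15 pairs of fibrogenic loci, with a median of 0.18.

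At E16.5, at its own depth of 5656 fragments, the highest medians with the lineage lists belonged to Erg and Creb5, with different lists. In nuclei with an open Erg locus, all 8 chondrogenic loci were open more often, with a median log2 odds ratio of 0.34, against -0.03 over all loci. Col9a1, a cartilage collagen gene, was open in 23.1% of nuclei with Erg open and in 16.5% of the others (0.60, interval 0.45 to 0.74). The values of the other chondrogenic loci ran from 0.13 for Sox9 (0.02 to 0.25) to 0.45 for Sox6 (0.34 to 0.57). Creb5 had its highest list median at this depth, also 0.34, with the fibrogenic loci, with 6 of 6 above 0, against a median of -0.04 over all loci. At this depth Creb5 was open in 92.9% of nuclei, so that its values rested on 751 of 10537 nuclei without it, whereas Erg was open in 61.9%. Clec3b was open in 41.1% of nuclei with Creb5 open and in 32.6% of the others (0.53, interval 0.30 to 0.75), and the lowest value was 0.25 for Postn (0.02 to 0.48). The median of Erg with the fibrogenic loci was -0.08 and that of Creb5 with the chondrogenic loci 0.12. At the common depth of 1074 fragments the same 2 medians were 0.17 for Erg and 0.15 for Creb5, and neither was the highest there. Prg4 was then at 0.45 with the endothelial loci and 0.20 with the tenogenic loci, Wnt4 was at 0.38 with the epithelial loci, and Creb5 itself was at 0.16 with the endothelial loci. At this common depth Erg was also above 0 with all 6 dermal fibrogenic loci (median 0.11). They ran from 0.08 to 0.40 for Irx1, above its highest chondrogenic value of 0.29 for Col2a1. At E14.5, at its own depth, the values were 0.14 for Erg and -0.02 for Creb5. There, Creb5 was at 0.11 with the endothelial and Erg at 0.15 with the pericyte loci, and the highest median was 0.23 for Prg4 with the chondrogenic loci. In the E12.5 library, at 1074 fragments, the values were -0.03 for Erg, with 3 of 8 loci above 0, and 0.10 for Creb5, with 3 of 6.

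Among the ligands, Wnt4 was at 0.08 with the chondrogenic and -0.16 with the fibrogenic loci, the latter with 0 of 6 above 0, against 0.03 over all loci. Gdf5, Gdf6 and Wnt9a lay between -0.05 and 0.07 with both lists, and so did Barx1, at 0.03 and 0.00. Prg4 was at 0.03 with the chondrogenic, 0.13 with the tenogenic and 0.09 with the fibrogenic loci. With the 19 other joint and synovial loci, no member had a median outside -0.06 to 0.08, although 2 of the 19 loci, Sulf1 and Vit, reached 0.55 and 0.54 with Creb5. At this depth 0.559% of all distant pairs of loci reached 0.5. The share among pairs with Creb5, which was open in 92.9% of nuclei, was not computed.

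**Figure D3:**
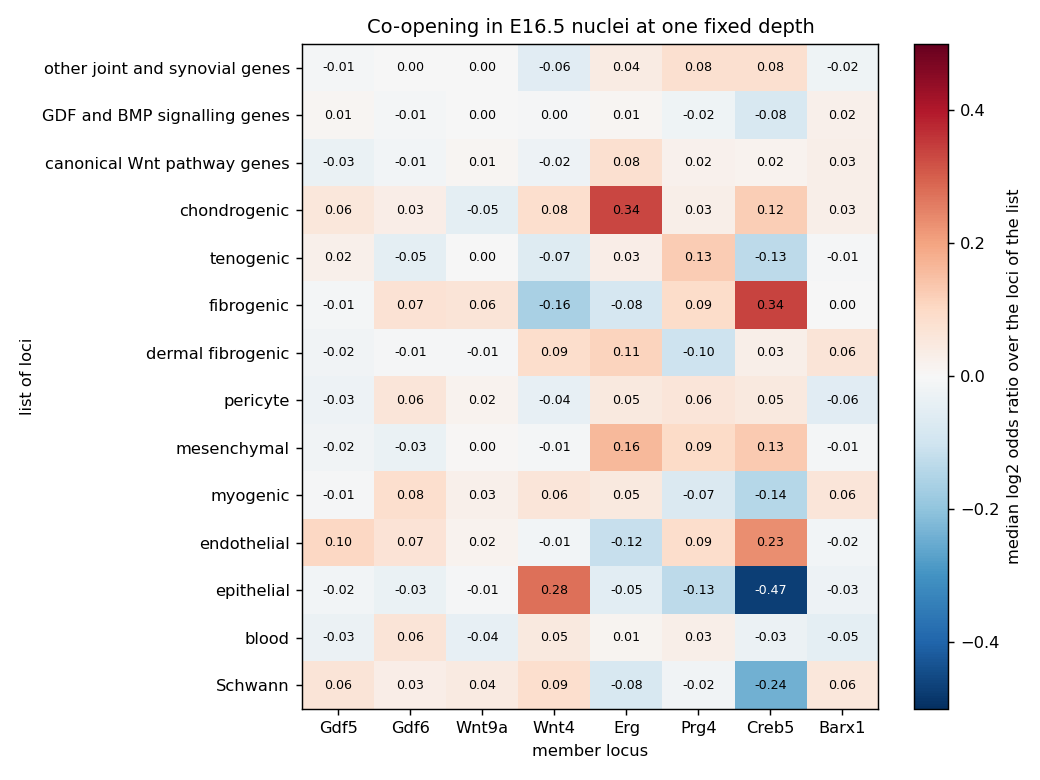
Median log2 odds ratio of co-opening between each of the 8 loci (columns) and the loci of each list (rows) in E16.5 nuclei thinned to 5656 fragments, with red above 0 and blue below. Erg with the chondrogenic and Creb5 with the fibrogenic loci, both 0.34, are the highest cells, and Creb5 with the epithelial loci, at -0.47, is the lowest.

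Single regions were then set against the same lists. For each shared region open in at least 1% of E16.5 nuclei, the mean number of list loci open was compared between nuclei with and without that region open, a measure chosen after the data were seen. Of 109 member regions, 18 (16.5%) fell in the top 5% of all regions for the 8 chondrogenic loci, 10 (9.17%) for the 6 fibrogenic loci and 3 (2.75%) for the 5 tenogenic loci. Away from promoters these were 18 of 97 (18.6%, against 5.94% of all such regions) and 10 of 97 (10.3%, against 6.07%) for the first 2 lists. With another random draw of the fragments, 16 and 9 regions were in the top 5%, of which 15 and 7 were the same. The 2 longest windows held 71 of the 109 ranked regions, 50 in Creb5 and 21 in Erg. Of the 18 chondrogenic regions 9 were in Creb5, 6 in Erg, 2 in Wnt9a and 1 in Wnt4, and of the 10 fibrogenic regions 9 were in Creb5 and 1 in Gdf5.

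The member region with the highest chondrogenic ratio was the Wnt4 downstream flank at 24.4 kb, whose sequence is given above. Where it was open, 4.03 of the 8 chondrogenic loci were open, against 2.77 in the other nuclei, a log2 ratio of 0.54 at percentile 99.4. At E14.5 the same region gave 2.27 against 1.61, a log2 ratio of 0.49 at percentile 99.9, and its fibrogenic ratios were -0.33 at E16.5 and -0.25 at E14.5. The median log2 odds ratio of the whole Wnt4 locus with these loci, given above, was 0.08. In Erg, the intronic region at 13.2 kb (chr16:95572755-95573951) gave 3.65 against 2.75 loci (0.41, percentile 98.8), those at 11.4 kb and 187 kb gave 0.42 and 0.38, and the first and the last of these 3 were at 0.17 and 0.35 at E14.5 (percentiles 96.1 and 99.7). These 3 Erg regions were all lower at E16.5 than at E12.5, by log2 ratios of -0.76, -1.22 and -0.91 at matched positions. Creb5 held both kinds of region. At 329 kb (chr6:53615472-53616485), an intronic region gave 3.48 against 2.78 chondrogenic loci (0.32, percentile 97.9), although its level of 4.75, 0.20 and 5.42 FPM rested on only 29 bp called at E14.5. At 50.2 kb, the intronic region that was higher in each later library gave 2.63 of 6 fibrogenic loci, against 2.22 in other nuclei (0.25, percentile 99.4), and a chondrogenic ratio of -0.10. At E14.5, the chondrogenic ratio of this region was -0.33, at percentile 0.027. The intronic Creb5 regions at 230 kb and 331 kb, which also rose, had fibrogenic ratios of 0.24 and 0.20.

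Gdf5 and Prg4 each had 1 region in these groups. The Gdf5 flank at -4.27 kb gave 2.54 against 2.23 fibrogenic loci (0.18, percentile 95.8, and 91.2 with another random draw) and a chondrogenic ratio of -0.12. The Prg4 promoter gave 2.19 of 5 tenogenic loci, against 1.95 (0.17, percentile 97, and 95.4 with another random draw). Its chondrogenic ratio was 0.06 and its fibrogenic ratio 0.00. Only 3 of the 109 member regions (2.75%) were in the tenogenic top 5%, the others being in Creb5, so members were not more frequent there than all regions. Of the 109 ranked member regions, 31 were higher at E16.5 than at E12.5, and of these 7 were in the fibrogenic and 4 in the chondrogenic top 5% (10.9% and 5.92% of all higher regions). A further 28 of the 109 were lower, of which 1 was in the fibrogenic and 7 in the chondrogenic top 5% (2.81% and 7.41%).

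**Figure D4:**
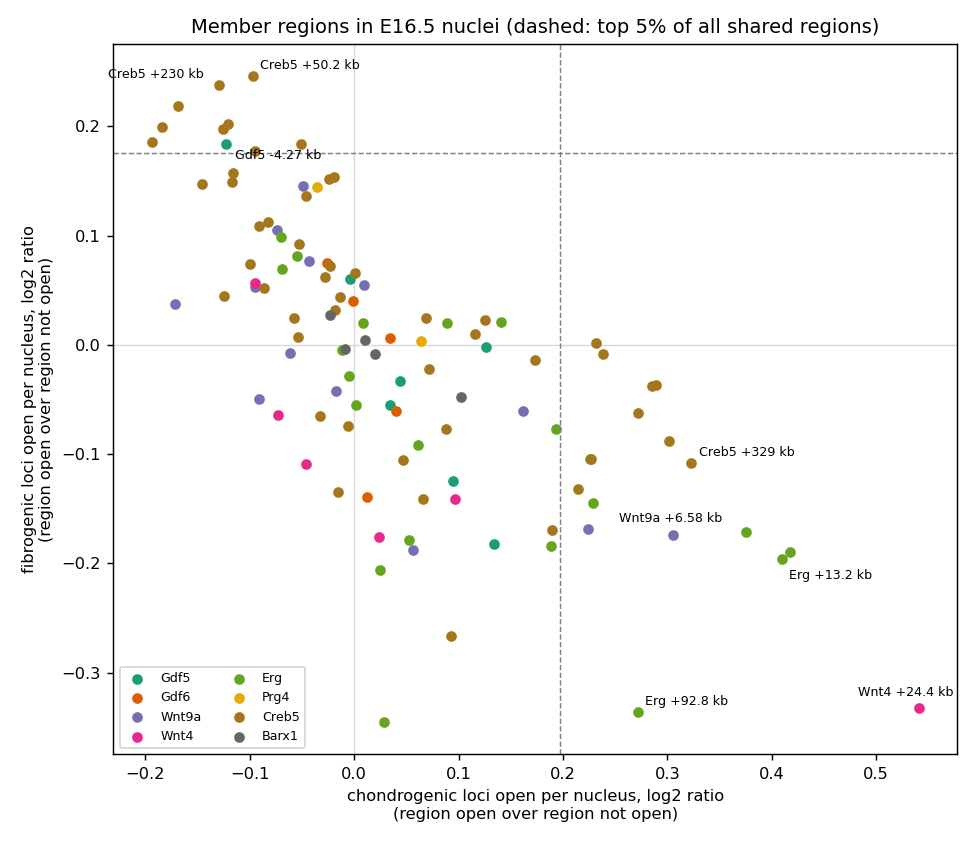
Each point is 1 of the shared regions of the 8 loci in E16.5 nuclei, placed by the log2 ratio of the mean number of chondrogenic loci (horizontal) and fibrogenic loci (vertical) open in nuclei with that region open over nuclei without it. Dashed lines mark the top 5% of all shared regions, at 0.20 and 0.18. The Wnt4 region at 24.4 kb and 3 Erg regions lie farthest to the right, and the highest points are Creb5 regions, led by that at 50.2 kb.

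The central 300 bases of the intronic Erg and Creb5 regions of high chondrogenic ratio are shown as the examples that hold a motif, 1 AP-1 match each, in capitals, and in the Erg window also an HMG match. The Erg region at 11.4 kb, of about the same ratio, held none of the 5 motifs.
Erg intron at 13.2 kb (chr16:95573204-95573503, plus strand): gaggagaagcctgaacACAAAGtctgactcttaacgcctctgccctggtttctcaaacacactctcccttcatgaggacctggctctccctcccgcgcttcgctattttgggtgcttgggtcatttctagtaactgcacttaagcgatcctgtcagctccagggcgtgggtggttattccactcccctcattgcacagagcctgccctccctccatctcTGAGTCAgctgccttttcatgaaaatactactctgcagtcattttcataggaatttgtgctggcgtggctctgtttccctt
Creb5 intron at 329 kb (chr6:53615829-53616128, plus strand): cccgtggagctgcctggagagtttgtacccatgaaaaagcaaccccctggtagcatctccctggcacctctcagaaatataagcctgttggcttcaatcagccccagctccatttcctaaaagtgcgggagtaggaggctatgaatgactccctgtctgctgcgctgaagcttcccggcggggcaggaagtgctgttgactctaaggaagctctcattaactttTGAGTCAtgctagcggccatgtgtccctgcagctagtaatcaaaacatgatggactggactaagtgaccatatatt
Of the 18 member regions in the chondrogenic top 5%, 5 held AP-1 and 3 HMG, where 12.2% and 22% of all regions in that top 5% did. Of the 10 in the fibrogenic top 5%, 1 held AP-1 and 4 HMG (15.7% and 24%).

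Within a locus, the number of nuclei with a promoter and a distal region both open was set against the number expected if they opened independently, and no such value was computed for other loci. Over 152 pairs of an own promoter and another shared region of the 8 loci, the summed number of nuclei with both open was 1.37 times the expected number at E12.5 (1.26 to 1.49), 1.16 times at E14.5 (1.1 to 1.22) and 1.08 times at E16.5 (1.02 to 1.15). With another random draw the last value was 1.04 (0.978 to 1.11). At its own depth E16.5 gave 1.03 times (1.02 to 1.05), with 1.1 for Erg (1.04 to 1.16) and 1.03 for Creb5 (1.01 to 1.04). Creb5 alone gave 104 of the 152 pairs, and 386 of the 549 joint openings at E12.5. Its own ratio there was 1.33, while the others ran from 0.63 for Wnt4 (0.13 to 1.84) to 1.65 for Erg, apart from Prg4 with 0 joint openings. This order was not stable, since another random draw at E12.5 gave 1.64 for Wnt4, 1.35 for Erg and 1.89 for Gdf5. A nucleus enters many pairs of 1 locus, so that these intervals are too narrow.

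Finally, the loci most like each member over the E16.5 nuclei at the common depth were ranked by the phi correlation of opening. The 3 highest for each were Zfp229, Ctrc and 4933414I15Rik for Gdf5, Ttc9b, Elovl4 and Pold3 for Gdf6, Fam20a, Cblb and Trpm5 for Wnt9a, Crnn, Adgrg1 and AC170998.1 for Wnt4, Adamts20, Col14a1 and Myo3b for Erg, Gm17728, Mos and Sept11 for Prg4, Wwox, Kalrn and 4930590J08Rik for Creb5, and Tbc1d22a, E2f1 and Taar6 for Barx1. All 24 values lay between 0.0312 and 0.0488 over 13796 nuclei of 1 library, and none of these loci was another member. Nuclei with both loci open ran from 3 for Prg4 and Gm17728 and 14 for Barx1 and Taar6 to 2557 for Creb5 and Wwox. The 3 loci of each member were picked as the highest of all, and whether correlations of this size mark a partner was not tested.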

How the data were processed

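Accessibility had been measured in sorted MPs of the forelimb, with 1 library per stage. The authors deposited raw counts for each library, the number of cut sites of each nucleus in each peak, with peaks called per library on mm10. The submitters' processing notes name Cell Ranger ATAC 1.1.0 and bcl2fastq, whereas the file headers give version 1.0.1 for E12.5 and E14.5 and 1.2.0 for E16.5. The version and the E16.5 stage cannot be told apart, peak widths included. Even numbers made up 89.5% to 94.1% of the entries, a fragment having 2 cut ends, so fragments were taken as cut sites divided by 2, rounded up.

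Overlapping peaks of the 3 libraries were merged, and a merged region was shared if all 3 libraries had a peak in it. Peaks were narrower at E14.5 in all 8 windows, so that ratios per kb of called width and at peaks of matched position were computed as alternatives. Genes were taken from the GENCODE annotation of GRCm38, and sequences from GRCm38.p6. A promoter reached from 1000 bp before to 100 bp after a start. Ratios have exact conditional intervals, shares have Clopper-Pearson intervals and odds ratios have intervals with 0.5 added to each cell. All cover counting error only, and fragments without molecular identifiers are not independent molecules. Nuclei were used as deposited, without clustering or a doublet caller. Distant loci lay on different chromosomes or over 1 Mb apart.

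The text names all 8 members, their promoters, the region of at least 2 FPM with the largest rise and fall in each, the largest rise and fall in each of 14 lists of other genes, and the 3 loci of highest phi. The largest rise in the blood list and in the Schwann list is not reported here. Regions ranked by lineage ratio were named after their values were seen. The members and lists were chosen with earlier results of these data known. The ratios and the thinning were tested on simulated data, and each setting was varied 1 at a time. Python 3.11.15, NumPy 2.4.6, SciPy 1.17.1, pandas 2.3.3 and matplotlib 3.10.9 were used.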

Additional observations from a re-analysis of the deposited data

How the results depend on the processing

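Counts of member loci past the limit depended mainly on the called width. Per kb of called width, 7 of 8 loci were higher from E12.5 to E14.5 (median log2 ratio 0.59), where 48.6% of all loci were (median 0.49), and 0 were higher and 7 lower from E14.5 to E16.5 (median -0.73, with Wnt4 at -0.90 and Prg4 at -0.0941, both reversed), where 81.5% of all loci were lower (median -0.69). By the same measure 1 was higher from E12.5 to E16.5 (median -0.0885), against 1.08% of all loci (median -0.20). In peaks of matched position, which left out Prg4, 1 was lower from E12.5 to E14.5 (6.04% of all loci), 0 were higher from E14.5 to E16.5 (4.03%, median 0.07, with Wnt4 reversed at -0.0601), and 0 were higher and 1 lower from E12.5 to E16.5 (5.32% and 6.97%). With the gene body and 2 kb upstream, 1 was higher at each of the first 2 steps (10.5% and 6.24% of all loci), with a median of 0.26 at the first (all loci 0.14). With all own peaks of the window, 1 was lower from E14.5 to E16.5 (13.5% of all loci). Scaling by the median locus gave medians of -0.0294 and 0.0931 at the first 2 steps. The direction of the changes in Prg4 and Wnt4 from E12.5 to E16.5 held under each alternative that gave a value.

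Without thinning, 28 of 28 member pairs were co-open in each library, with medians of 1.74, 0.96 and 1.5, as were 99.9%, 94% and 99.2% of all distant pairs. At E12.5 the number of co-open pairs was 3 with another random draw, 3 without regions at other promoters and 8 in the shorter window (9.71%, 20.9% and 19.4% of all pairs), and at E14.5 it was 1 and 2 in the last 2 settings (10.7% and 7.14%). The number of medians of a member with a list that reached 0.5 was 3 at E12.5 and 3 at E14.5 without other promoters, against 1 and 1, and 0 at E14.5 with another draw and at its own depth. At the common depth only 40 member regions could be ranked at E16.5, of which 7 were in the chondrogenic, 0 in the tenogenic and 3 in the fibrogenic top 5%, and 3 of the 7 and 3 of the 3 were among those of the own depth. HMG was in 34.2% of the 500 bp windows, against 33.9% of all. Of 891 alternative values, 3 reversed, and 219 single values and 37 counts or medians over members moved by more than their counting interval or 1.5 times. Only values past the limit in the main setting could be labelled reversed, so that other changes of sign stand among those that moved. Of the 189 alternative stage ratios of single members, 95 moved and 3 reversed. No paired analysis was possible because each stage had 1 library. Pairs with Prg4 rested on the fewest nuclei with the locus open.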

Other observations

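At E16.5, at its own depth, 4 further medians with the lists are given as values. Creb5 was at -0.47 with the epithelial loci, but at -0.09 at the common depth of 1074 fragments and at 0.05 in the E14.5 library at its own depth. In the E12.5 library, at 1074 fragments, its value was 0.29, of opposite sign. At E16.5, at its own depth, Cdh1, encoding E-cadherin, was open in 32.3% of nuclei with Creb5 open and in 42.7% of the others (log2 odds ratio -0.65, interval -0.86 to -0.43). Wnt4 was at 0.28 with the same 3 loci (0.38 at the common depth), with Epcam at 0.49 (0.30 to 0.68) and Krt14 at 0.06 (-0.42 to 0.53). Creb5 was also at 0.23 with the endothelial and -0.24 with the Schwann loci (0.16 and -0.08 at the common depth). The paper removed small groups of epithelial cells from its E16.5 single-cell RNA data, whereas nuclei were used here as deposited. The sort selected reporter-positive cells and removed endothelial cells, and the part of other cell types in these values was not tested. These results were named after their values were seen.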
